A study of Mus musculus with 6 samples.

Results

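The genes described here are 50 genes of mitosis and the spindle checkpoint, listed by name for their role in cell division. No measured value enters the rule, but the list was drawn up with earlier results of these data known. All 50 were found in the deposited table of 16729 genes, and all 50 passed the filter on low counts in both comparisons made here. By role they are 4 mitotic cyclin and CDK1 genes, 6 genes of CDC25 phosphatases and mitotic kinases, 5 spindle checkpoint genes, 6 genes around the anaphase-promoting complex (APC/C) and separase, 4 genes of the chromosomal passenger complex, 7 of the centromere and kinetochore, 7 of chromosome structure, 4 of spindle assembly, 5 of cytokinesis and 2 transcription factors. Kinesins were left out by the rule.

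Cells enter mitosis when CDK1, bound to cyclin A or cyclin B, is activated by CDC25 phosphatases and amplified by Polo-like and Aurora kinases. Kinetochores then capture spindle microtubules while the spindle checkpoint holds the APC/C in check, and once all chromosomes are attached CDC20 turns the APC/C on, securin is destroyed and separase opens the cohesin rings. Transcripts of most of these genes are made in G2 and mitosis under B-Myb, FOXM1 and the MuvB complex. In tumors such as glioblastoma, the malignant glioma of the adult brain, these transcripts are therefore widely read as a measure of dividing cells.

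Tumors were grown by injecting mG7080 cells, a murine glioblastoma (GBM) gliomasphere line derived from mice with engineered tumor suppressor mutations, into the brains of C57BL/6 hosts. Hosts were either wild type (WT) or lacked Esm1 (Esm1 KO), the gene for the secreted proteoglycan Endocan, which tumor endothelial cells make. The deletion was in the host alone and the injected cells were the same line in both groups, no treatment was given, and total RNA of whole tumor tissue was sequenced from 3 tumors per genotype. The study's methods state that female mice only were used, and sources differ on their age, so none is given here.

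The label of the library labelled KO 2 was in doubt and is stated before the results. Reads of Esm1 itself numbered 25, 21 and 82 across the WT tumors and 1, 24 and 4 across KO 1, KO 2 and KO 3, so KO 2 carried as many Esm1 reads as WT tumors. Counts over the genes and over each group of genes are therefore given with KO 2 and without it. The study's own table of RNA-seq results holds 4 libraries (WT 1, WT 2, KO 1 and KO 3), and these were compared as well. Tests of single genes are given over these 4, while 0 of the 50 passed over all 6. The 4 libraries leave out KO 2 and WT 3, so their p-values do not describe all tumors labelled KO and WT. A second point concerns sex: Xist, the RNA of the inactive X chromosome in females, was at 639, 2.96 and 2.38 CPM (counts scaled to library size with TMM factors) in WT 1, WT 2 and WT 3 and at 1590, 800 and 1101 CPM in KO 1, KO 2 and KO 3, so in WT 2 and WT 3 its level went against an all-female host group. Total counts ran from 17632070 to 22241832 per library, at which 1 read is worth 0.0441 to 0.0568 CPM and a count of 0 allows up to 3 counts, or 0.132 to 0.170 CPM.

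Over all 6 libraries, the comparison of KO and WT hosts that the labels give, 49 of the 50 genes were lower in KO by sign and 0 passed the test. The fitted log2 fold changes (KO over WT) ran from -2.16 (Aurkb, SE 1.29) to 0.95 (Cit, SE 0.29) with a median of -1.72, against -0.02 over the 16166 genes tested. In edgeR's quasi-likelihood test, with p-values adjusted across every gene tested by Benjamini-Hochberg, the smallest adjusted p of the 50 was 0.184 (Bub3). Across all genes 0% passed in the lower direction as well. At an unadjusted p under 0.05, 3 of the 50 were lower (Bub3, Plk4 and Ncapd2) and 1 was higher (Cit), where 11.9% of all genes were lower at that level. DESeq2, edgeR's exact test and limma-voom also called 0 of the 50 at an adjusted p under 0.05, where they called 2.63%, 0.501% and 0% of all genes lower. DESeq2 gave no adjusted p for some of the 50, among them Plk1, Aurkb, Top2a and Mki67, so its 0 covers only part of the 50. At an unadjusted p DESeq2 had 7 of the 50 lower against 14.8% of all genes, the exact test 34 against 10.8%, and limma-voom 42 against 17%. The 3 KO libraries all lay below the 3 WT libraries for 4 of the 50 genes, against 14.8% of all genes tested. In limma-voom the median of the 50 was -2.78.

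Without the library labelled KO 2, 47 of the 50 genes were lower at an adjusted p under 0.05 and 1 was higher (Cit). The background for that count was large, since 28.3% of the 16279 genes tested were lower by the same call and 3986 of them were higher. The median of the 50 was -4.08. The genes that did not pass were Pttg1, at 0.01 (SE 0.13, adjusted p = 0.940), and Anln, at -0.99 (adjusted p = 0.0592). KO 1 and KO 3 were both below every WT library for 48 of the 50 genes, where 40.4% of all genes showed that order.

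Over WT 1, WT 2, KO 1 and KO 3, 45 of the 50 genes were lower in KO at an adjusted p under 0.05 and 0 were higher. Of the 16183 genes tested, 13.9% were lower and 2.87% higher by that call. At an unadjusted p under 0.05, 46 of the 50 were lower and 1 higher, against 26.2% and 19.9% of all genes. After adjustment DESeq2 and edgeR's exact test each called 1 of the 50 higher and limma-voom 0, where they called 16.6%, 16.2% and 2.94% of all genes higher. The call with a fold above 4, the threshold of the study, held for 43 of the 50 against 6.23% of all genes. The median log2 fold change of the 50 was -4.0, where that of all genes was -0.03, and the range ran from -5.23 (Cdk1) to 1.10 (Cit). The 5 that did not pass were Top2a, Cit, Cdc25b, Anln and Pttg1. With WT 2 left out as well, which leaves WT 1 as the single WT library and no library of low Xist, 43 of the 50 were lower against 12.5% of all genes. Without KO 3 the count was 32 against 1.54% of all genes. The p-values over the 4 libraries rest on the spread within groups of these few tumors, with KO 2 and WT 3 left out. The median SE of the 50 was 0.54 over the 4 libraries and 1.09 over all 6. A fit with 1 library in a group assumes that it varies like the other group.

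**Figure D1:**
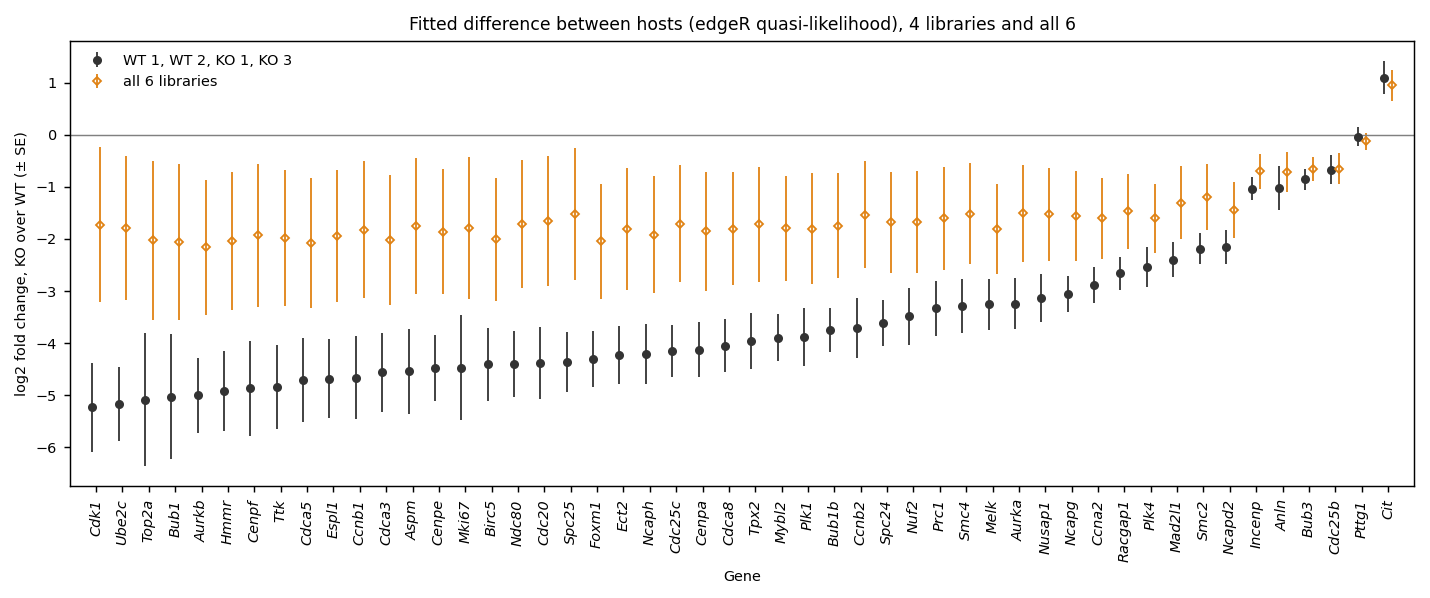
Fitted log2 fold change (KO over WT, edgeR, y axis) with its standard error for each of the 50 genes (x axis, ordered by the 4-library value), over WT 1, WT 2, KO 1 and KO 3 (filled circles) and over all 6 libraries (open diamonds). The 4-library values run from -5.23 (Cdk1) to 1.10 (Cit), and the 6-library values lie nearer to 0, between -2.16 and 0.95, with standard errors of up to 1.53.

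The order of the libraries was nearly the same from gene to gene. In 33 of the 50 genes it ran KO 3, KO 1, WT 1, KO 2, WT 3, WT 2 from low to high, in 10 more only WT 2 and WT 3 changed places, and in 4 KO 2 lay under WT 1. KO 3 was lowest in 47 genes, WT 1 was the lowest WT library in 49, and KO 2 fell within the range of the WT libraries in 44, below it in 5 and above it in 1. As a percent of the mean of the WT libraries, the median gene stood at 7.79% in KO 1, 77.1% in KO 2 and 3.51% in KO 3. The WT tumors differed among themselves as well: the median gene was 1.83 times as high in WT 2 as in WT 1, and 1.73 times as high in WT 3 as in WT 1, where the medians of all genes over 1 CPM were 1.05 and 1.02.

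Levels per transcript length (FPKM, as deposited) put the 50 genes on a common scale. The mean over the WT libraries had a median of 21.1 FPKM over the 50 genes and ran from 7.31 FPKM (Mybl2) to 155 FPKM (Top2a). The mean over KO 1 and KO 3 had a median of 1.45 FPKM and ran from 0.240 FPKM (Cdca5) to 32.6 FPKM (Pttg1).

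**Figure D2:**
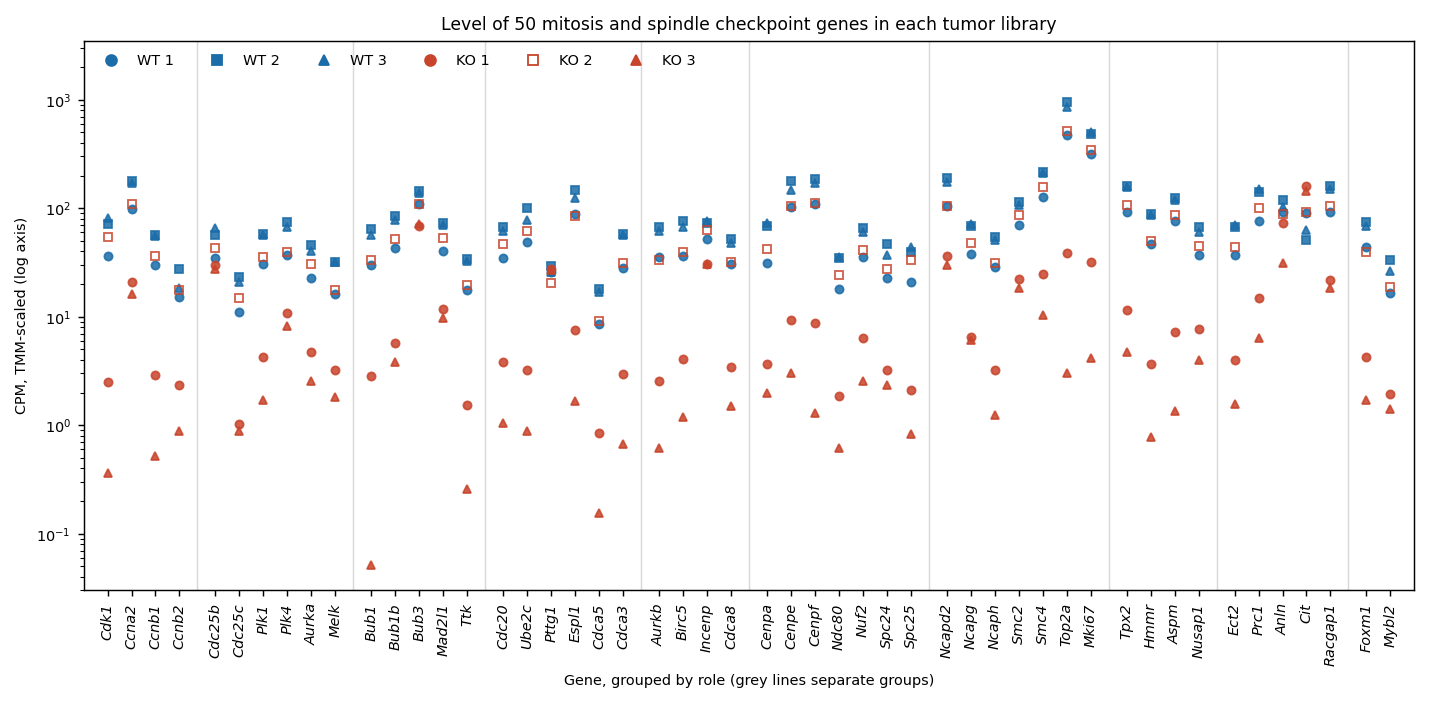
Level of each of the 50 genes (x axis, grouped by role) in each library, in TMM-scaled CPM on a log axis; blue marks are WT 1 to WT 3, red marks KO 1 to KO 3, and the library labelled KO 2 is drawn open. KO 1 and KO 3 lie below every WT library in 48 genes, while KO 2 lies within the WT range in 44.

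Genes that mark the cell types of the tissue also differed between libraries, in either direction, and are given here as measurements. The 50 genes summed to 3164, 5507 and 5202 CPM in WT 1, WT 2 and WT 3 and to 769, 3545 and 511 CPM in KO 1, KO 2 and KO 3. The 10 glioma and neural progenitor markers summed to 2134, 3480 and 2995 CPM in the WT libraries and to 610.0, 2446 and 440.0 CPM in the KO libraries, and 10 of 10 were lower over the 4 libraries at an adjusted p under 0.05, with a median of -2.60 and a range from -3.74 (Vim) to -1.11 (Sox2). Over all 6 libraries their median was -1.05 and 0 of the 10 passed in edgeR's quasi-likelihood test or in limma-voom, with 2 and 4 lower at an unadjusted p, while DESeq2 and edgeR's exact test each called 1. Without KO 2 the quasi-likelihood test called 10. Set against that sum, the mitosis genes stood at 1.48, 1.58 and 1.74 times the glioma markers in the WT libraries and at 1.26, 1.45 and 1.16 times in the KO libraries. Every KO library was below every WT library in that ratio, but KO 2 at 1.45 was close to WT 1 at 1.48. In the summed level of the mitosis genes KO 2 lay above WT 1. KO 1 and KO 3 were below WT by far less in the ratio than in the levels themselves. The ratio rests on summed CPM, in which genes that fell little or rose weighed heavily in KO 1 and KO 3. Cit alone held 160.0 of the 769 CPM in KO 1 and 143 of the 511 CPM in KO 3. Bub3 held 69.2 and 71.1 CPM there. In KO 1 the median glioma marker kept 20.4% of its WT mean and in KO 3 13.4%, where the median mitosis gene kept 7.79% and 3.51%.

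Neuron markers went the other way. The 11 neuron markers summed to 5506, 1809 and 3427 CPM in the WT libraries and to 12959, 4672 and 15399 CPM in the KO libraries. KO 1 and KO 3 were above every WT library for 11 of 11, where 6018 of the 16166 genes tested showed that order. Over the 4 libraries 0 of them passed in edgeR's quasi-likelihood test after adjustment, with 9 higher at an unadjusted p under 0.05, and limma-voom gave the same counts, while DESeq2 and edgeR's exact test each called 10 higher. Without KO 2 the quasi-likelihood test called 10 higher, where 3986 of all 16279 genes tested were higher by that call. The 7 myelinating oligodendrocyte markers summed to 3352, 1356 and 1904 CPM in WT and 7546, 3205 and 3901 CPM in KO. Of these, 5 of 7 were above every WT library in KO 1 and KO 3, against the same 6018 of 16166 genes. The 6 astrocyte markers summed to 2859, 2024 and 2212 CPM in WT and 4989, 3189 and 4551 CPM in KO, with Slc1a2 at 2.03 (adjusted p = 0.0746) and Gfap at -2.26 (adjusted p = 0.0343) over the 4 libraries. Sums of the 9 microglia and macrophage markers were 900.1, 844 and 824 CPM in WT and 659.6, 1132 and 593 CPM in KO, and sums of the 6 endothelial markers 132, 179 and 175 CPM in WT and 179.7, 157 and 129.7 CPM in KO. Of the 4 T cell markers, which summed to at most 27.4 CPM in any library, 3 were lower over the 4 libraries and 3 without KO 2, while all 6 libraries gave a median of -0.44 and overlapping groups for each of them.

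Y-linked genes, looked at after their values were seen, mark male cells. The 4 of them (Ddx3y, Eif2s3y, Kdm5d and Uty) summed to 92.2, 112 and 165 CPM in the WT libraries and to 9.31, 146 and 0.104 CPM in KO 1, KO 2 and KO 3, which is 7.55%, 118% and 0.0842% of the WT mean. KO 1 and KO 3 were thus low both in Y-linked RNA and in mitosis genes while their Xist was high. KO 2 also had high Xist, at 800 CPM, but its Y-linked genes and its mitosis genes summed to levels within the range of the WT libraries. What part of the difference in mitosis genes goes with the makeup of the sampled tissue was not tested, and in bulk RNA fewer cells of a type and less RNA per cell cannot be told apart.

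**Figure D3:**
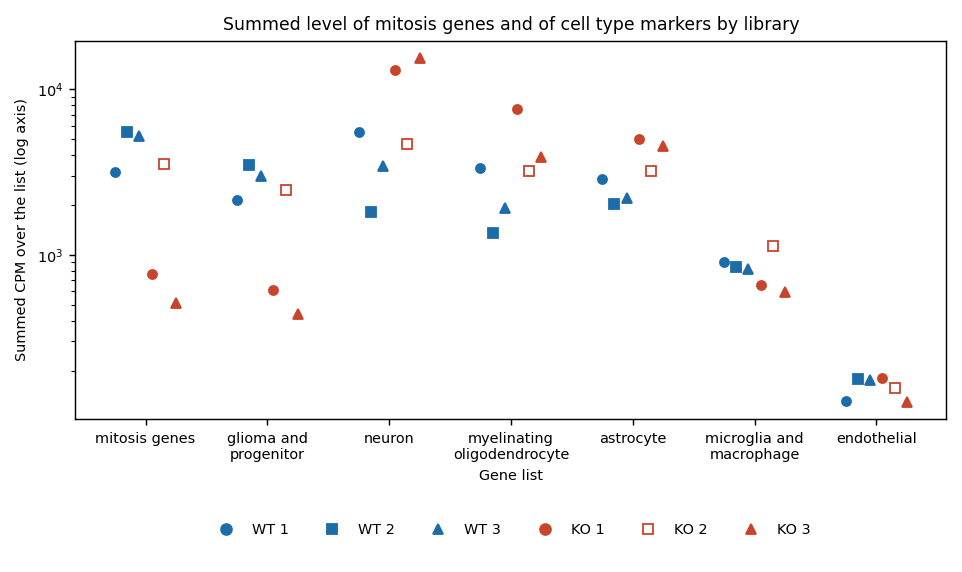
Summed CPM (log axis, y) over the 50 mitosis genes and over 6 lists of cell type markers (x axis) in each library, with WT in blue, KO in red and the library labelled KO 2 drawn open. KO 1 and KO 3 lie lowest for the mitosis genes (769 and 511 CPM) and for the glioma markers (610.0 and 440.0 CPM) and highest for the neuron markers (12959 and 15399 CPM).

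Promoters are shown for 6 genes because most of the 50 fell together over the 4 libraries: 4 that fell more than 4-fold (Ccnb1, Cdk1, Plk1 and Cdc20), 1 that fell less (Bub3) and 1 that was higher by sign (Cit). Each line is 250 bases of RefSeq sequence (GRCm38.p6), 5′ to 3′ on the gene's own strand, from 220 bases before the start of transcription to 30 bases after it. Capitals mark every match, on either strand, to a CHR (cell cycle genes homology region, the site bound by MuvB, searched as TTTGAA or TTCGAA), to a CCAAT box (CCAAT, the site of NF-Y) and to an E2F site (TTTCCCGC, TTTCGCGC, TTTGCCGC or TTTGGCGC). The windows lie at chr13:100786457-100786706, minus strand (Ccnb1), chr10:69352883-69353132, minus strand (Cdk1), chr7:122159215-122159464, plus strand (Plk1), chr4:118437314-118437563, minus strand (Cdc20), chr7:131560150-131560399, plus strand (Bub3) and chr5:115845436-115845685, plus strand (Cit).
Ccnb1: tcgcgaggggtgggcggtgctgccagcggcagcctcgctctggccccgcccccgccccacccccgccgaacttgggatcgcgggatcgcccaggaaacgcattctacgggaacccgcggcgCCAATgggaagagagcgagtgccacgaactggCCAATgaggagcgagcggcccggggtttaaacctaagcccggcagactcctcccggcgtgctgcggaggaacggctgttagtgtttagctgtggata
Cdk1: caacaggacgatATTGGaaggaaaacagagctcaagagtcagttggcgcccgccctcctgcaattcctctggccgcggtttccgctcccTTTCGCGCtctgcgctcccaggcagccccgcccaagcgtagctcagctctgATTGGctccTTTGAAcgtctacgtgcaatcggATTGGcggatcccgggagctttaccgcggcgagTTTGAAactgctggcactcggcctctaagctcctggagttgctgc
Plk1: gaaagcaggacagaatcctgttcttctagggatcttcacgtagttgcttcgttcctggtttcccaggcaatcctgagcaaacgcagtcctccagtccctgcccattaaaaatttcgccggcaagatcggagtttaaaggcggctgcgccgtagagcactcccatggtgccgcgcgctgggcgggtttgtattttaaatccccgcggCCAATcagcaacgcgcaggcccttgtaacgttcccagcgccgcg
Cdc20: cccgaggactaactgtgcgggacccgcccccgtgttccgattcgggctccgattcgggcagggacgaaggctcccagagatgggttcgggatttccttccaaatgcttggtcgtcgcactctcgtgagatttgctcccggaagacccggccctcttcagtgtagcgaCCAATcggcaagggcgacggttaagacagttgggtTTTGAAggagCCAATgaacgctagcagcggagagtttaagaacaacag
Bub3: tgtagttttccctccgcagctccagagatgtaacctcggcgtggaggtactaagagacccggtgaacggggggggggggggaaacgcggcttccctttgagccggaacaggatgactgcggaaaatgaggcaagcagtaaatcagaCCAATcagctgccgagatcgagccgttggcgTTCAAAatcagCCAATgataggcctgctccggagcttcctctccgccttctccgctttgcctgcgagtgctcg
Cit: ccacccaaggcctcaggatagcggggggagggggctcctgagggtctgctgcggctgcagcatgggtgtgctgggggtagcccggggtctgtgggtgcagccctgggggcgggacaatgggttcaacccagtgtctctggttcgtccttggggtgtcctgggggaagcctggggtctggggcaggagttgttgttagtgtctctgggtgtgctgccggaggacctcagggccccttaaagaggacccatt

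In these windows Cdk1 held CHR matches that began 71 and 15 bases before the start, 3 CCAAT boxes and the E2F match at 131 bases before it. Cdc20 held a CHR match 18 bases before the start between CCAAT boxes at 53 and 8 bases, and Bub3 had the same arrangement, with a CHR match at 43 bases between CCAAT boxes at 74 and 32. Ccnb1 had CCAAT boxes at 99 and 67 bases before the start and no match to the CHR letters searched. Plk1 had a CCAAT box at 14 bases, its CHR match lay outside the printed stretch, and its RefSeq start was not found in the GENCODE transcripts. Cit held no match.

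RefSeq windows of 250 bases before to 50 bases after the start were found for 42 of the 50 genes and for 27025 genes in all. A CHR match stood in 30 of the 42 (71.4%) against 19.4% of all windows, a CCAAT box in 29 (69.0%) against 37.9%, both in 27 (64.3%) against 7.70%, an E2F match in 3 (7.14%) against 2.32%, and no match at all in 10 (23.8%) against 49.2%. Cdc25b, which did not pass over the 4 libraries, and Bub3, with a log2 fold change of -0.85, held both a CHR match and a CCAAT box, as Cdk1 did, and Pttg1 and Cit held none. The other 8 windows without a match belonged to Birc5, Mad2l1, Melk, Mybl2, Ncaph, Nuf2, Nusap1 and Plk4, all lower over the 4 libraries. A match describes letters and is not a measured binding site. Only the letters given above were searched, so a window without a match was not shown to lack a site.

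The levels that follow are CPM in the order WT 1, WT 2, WT 3 and then KO 1, KO 2, KO 3, and the tests are edgeR's over WT 1, WT 2, KO 1 and KO 3 unless all 6 libraries are named. The cyclin and CDK1 genes fell together, 4 of 4, over the 4 libraries (over all 6 libraries -1.82 to -1.53, with 0 called, and without KO 2, 4 of 4 lower). Cdk1, the kinase that drives entry into mitosis, was at 36.5, 70.9 and 81.7 CPM in the WT libraries and 2.5, 54.2 and 0.363 CPM in the KO libraries. KO 3 held 7 Cdk1 reads, an interval of 0.146 to 0.749 CPM (exact 95%, counting error only), and KO 2 lay between WT 1 and the other WT libraries. Its change was the most negative of the 50 (log2 fold change -5.23, SE 0.86, adjusted p = 0.0343), where over all 6 libraries it was -1.73 (SE 1.49, adjusted p = 0.403). Ccnb1, which encodes cyclin B1, its partner in mitosis, was at 30.2, 56.4 and 55.1 CPM in the WT libraries and 2.89, 36.6 and 0.519 CPM in the KO libraries (log2 fold change -4.66, SE 0.80, adjusted p = 0.0344). KO 3 was again lowest, at 10 reads, and KO 2 again lay between WT 1 and the other WT libraries. Ccna2, the cyclin of S phase and G2, kept more of its level, at 99.5, 178 and 169.9 CPM in the WT libraries and 21.1, 110.1 and 16.1 CPM in the KO libraries (log2 fold change -2.89, SE 0.35, adjusted p = 0.0343). Ccnb2 stood between them at -3.71.

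Among CDC25 phosphatases and mitotic kinases, 5 of 6 were lower over the 4 libraries and Cdc25b did not pass (over all 6 libraries -1.81 to -0.65, with 0 called, and without KO 2, 6 of 6 lower). Cdc25c, which removes the inhibitory phosphates from CDK1, was at 11.1, 23.4 and 20.8 CPM in the WT libraries and 1.02, 14.9 and 0.883 CPM in the KO libraries (log2 fold change -4.16, SE 0.50, adjusted p = 0.0343). Cdc25b, the phosphatase that starts CDK1 activation at the centrosome, was at 34.5, 56.8 and 65.3 CPM in the WT libraries and 29.7, 42.7 and 27.5 CPM in the KO libraries. For it, KO 1 and KO 3 were below every WT library by a narrow margin, with KO 2 inside the WT range (log2 fold change -0.67, SE 0.27, adjusted p = 0.119). Plk1, needed for centrosome maturation and for exit from G2, was at 30.8, 57.995 and 56.4 CPM in the WT libraries and 4.26, 35.6 and 1.71 CPM in the KO libraries (log2 fold change -3.89, SE 0.56, adjusted p = 0.0343). Aurka, the kinase of the spindle poles, was at 22.9, 46.1 and 39.9 CPM in the WT libraries and 4.71, 30.9 and 2.54 CPM in the KO libraries (log2 fold change -3.24, SE 0.49, adjusted p = 0.0343). KO 3 was the lowest library for both kinases and KO 1 the next. Plk4, which controls centriole duplication, and Melk had log2 fold changes of -2.54 and -3.25.

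All 5 spindle checkpoint genes were lower over the 4 libraries, but by very different amounts (over all 6 libraries -2.06 to -0.65, with 0 called, and without KO 2, 5 of 5 lower). Bub1, the kinetochore kinase that recruits the other checkpoint proteins, was at 30.03, 64.02 and 57.1 CPM in the WT libraries and 2.84, 33.1 and 0.0519 CPM in the KO libraries. A single Bub1 read was found in KO 3, whose interval of 0.00131 to 0.289 CPM still lay under KO 1, and KO 2 lay just above WT 1. Its fitted change was large and uncertain (log2 fold change -5.03, SE 1.21, adjusted p = 0.0498), and the adjusted p lay between 5.11e-06 and 0.0646 over its 12 alternatives. Bub1b, which encodes the checkpoint protein BubR1, was at 43.2, 84.9 and 77.3 CPM in the WT libraries and 5.68, 51.7 and 3.79 CPM in the KO libraries (log2 fold change -3.75, SE 0.43, adjusted p = 0.0343). Mad2l1, the inhibitor that binds CDC20, was at 40.7, 73.4 and 69.4 CPM in the WT libraries and 11.7, 52.8 and 9.81 CPM in the KO libraries (log2 fold change -2.39, SE 0.33, adjusted p = 0.0343). Both showed KO 1 and KO 3 close together and far below WT 1. Bub3, which docks the BUB kinases on kinetochores and acts in interphase as well, changed least of the group, at 109.6, 145 and 138 CPM in the WT libraries and 69.2, 109.7 and 71.1 CPM in the KO libraries (log2 fold change -0.85, SE 0.20, adjusted p = 0.0497). KO 2 was level with WT 1 for Bub3, and over its 12 alternatives the adjusted p lay between 0.00511 and 0.266. Ttk, the kinase that starts checkpoint signaling, had 5 reads in KO 3 and a log2 fold change of -4.85.

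Of the 6 genes around the APC/C and separase, 5 were lower over the 4 libraries and Pttg1 was not (over all 6 libraries -2.08 to -0.13, with 0 called, and without KO 2, 5 of 6 lower). Cdc20, the activator of the APC/C at the metaphase to anaphase transition, was at 35.2, 67.5 and 62.3 CPM in the WT libraries and 3.86, 47.2 and 1.04 CPM in the KO libraries (log2 fold change -4.39, SE 0.70, adjusted p = 0.0343). Ube2c, the ubiquitin-conjugating enzyme that works with it, was at 48.4, 101 and 78.1 CPM in the WT libraries and 3.24, 61.6 and 0.883 CPM in the KO libraries (log2 fold change -5.17, SE 0.72, adjusted p = 0.0343). Espl1, which encodes separase, was at 88.03, 149 and 124 CPM in the WT libraries and 7.49, 84.7 and 1.66 CPM in the KO libraries (log2 fold change -4.69, SE 0.76, adjusted p = 0.0343). For these 3 genes KO 1 and KO 3 lay far below the lowest WT library. Pttg1, which encodes securin, the inhibitor that the APC/C destroys to free separase, was at 26.1, 29.5 and 26.1 CPM in the WT libraries and 27.4, 20.7 and 26.8 CPM in the KO libraries. The groups overlapped, with KO 2 lowest and WT 2 highest (log2 fold change -0.03, SE 0.18, adjusted p = 0.899), and over its 12 alternatives the log2 fold change stayed between -0.28 and 0.04. Cdca5, which encodes the cohesin protector sororin, had 3 reads in KO 3 and a log2 fold change of -4.72, and Cdca3 had one of -4.56.

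The 4 chromosomal passenger genes were lower over the 4 libraries, with Incenp apart from the other members (over all 6 libraries -2.16 to -0.70, with 0 called, and without KO 2, 4 of 4 lower). Aurkb, the kinase of the complex, was at 35.4, 66.8 and 62.3 CPM in the WT libraries and 2.55, 33.4 and 0.623 CPM in the KO libraries (log2 fold change -5.01, SE 0.71, adjusted p = 0.0343). Birc5, which encodes survivin, was at 36.1, 76.8 and 67.3 CPM in the WT libraries and 4.09, 39.5 and 1.19 CPM in the KO libraries (log2 fold change -4.41, SE 0.70, adjusted p = 0.0343). Their partner Cdca8 (borealin) had a log2 fold change of -4.05. Incenp, the scaffold that holds the kinase, was at 52.2, 73.9 and 76.5 CPM in the WT libraries and 30.9, 63.3 and 30.4 CPM in the KO libraries (log2 fold change -1.03, SE 0.22, adjusted p = 0.0424). Of the WT mean, KO 1 and KO 3 kept 45.8% and 44.99% of Incenp but 4.66% and 1.14% of Aurkb.

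Centromere and kinetochore genes were lower in 7 of 7 cases over the 4 libraries, with log2 fold changes between -4.87 and -3.49 (over all 6 libraries -1.92 to -1.51, with 0 called, and without KO 2, 7 of 7 lower). Cenpa, the histone H3 variant of centromeric nucleosomes, was at 31.1, 68.4 and 72.4 CPM in the WT libraries and 3.69, 41.8 and 1.97 CPM in the KO libraries (log2 fold change -4.13, SE 0.54, adjusted p = 0.0343). Ndc80, the microtubule-binding subunit of the outer kinetochore, was at 17.98, 34.9 and 35.6 CPM in the WT libraries and 1.87, 24.5 and 0.623 CPM in the KO libraries (log2 fold change -4.40, SE 0.63, adjusted p = 0.0343). Its partner Nuf2 was at 35.9, 65.2 and 60.9 CPM in the WT libraries and 6.41, 41.4 and 2.54 CPM in the KO libraries (log2 fold change -3.49, SE 0.55, adjusted p = 0.0343). Cenpf, a large protein of the outer kinetochore, was at 109, 185 and 171 CPM in the WT libraries and 8.74, 112 and 1.3 CPM in the KO libraries (log2 fold change -4.87, SE 0.91, adjusted p = 0.037). For these genes WT 1 was the lowest WT library and KO 2 lay above it. Spc24, Spc25 and the kinetochore motor gene Cenpe had log2 fold changes of -3.62, -4.36 and -4.48.

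Of the 7 genes of chromosome structure, 6 were lower over the 4 libraries and Top2a missed the threshold (over all 6 libraries -2.02 to -1.19, with 0 called, and without KO 2, 7 of 7 lower). Top2a, the topoisomerase that untangles sister chromatids, was the most abundant of the 50 per transcript length in WT, at 475, 953 and 861 CPM in the WT libraries and 38.5, 520.5 and 3.06 CPM in the KO libraries. KO 1 and KO 3 were far below the WT libraries but differed from each other 12.6 times. Among 13944 genes over 1 CPM in every library, a set without Bub1, this ratio of KO 1 to KO 3 was highest for Top2a. The change did not pass (log2 fold change -5.09, SE 1.28, adjusted p = 0.0536), and the adjusted p lay between 7.58e-07 and 0.0642 over its 12 alternatives. Mki67, the Ki-67 antigen that coats mitotic chromosomes and marks cycling cells in pathology, was at 317, 488 and 507 CPM in the WT libraries and 31.8, 342 and 4.15 CPM in the KO libraries (log2 fold change -4.47, SE 1.01, adjusted p = 0.0467). Its KO 1 and KO 3 levels stood 7.67 times apart. Condensin compacts chromosomes, and its genes among the 50 were lower. Smc4, a shared subunit, was at 126, 217 and 209.9 CPM in the WT libraries and 24.7, 158 and 10.3 CPM in the KO libraries (log2 fold change -3.28, SE 0.52, adjusted p = 0.0343). Ncapd2, of condensin I, was at 105, 189 and 173 CPM in the WT libraries and 35.9, 105 and 30.01 CPM in the KO libraries (log2 fold change -2.15, SE 0.33, adjusted p = 0.0343). The other condensin genes had log2 fold changes of -2.19 (Smc2), -3.06 (Ncapg) and -4.21 (Ncaph).

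The 4 spindle assembly genes were all lower over the 4 libraries (over all 6 libraries -2.04 to -1.53, with 0 called, and without KO 2, 4 of 4 lower). Hmmr, a microtubule-binding protein of the spindle, was at 47.1, 89.2 and 86.5 CPM in the WT libraries and 3.69, 49.6 and 0.779 CPM in the KO libraries (log2 fold change -4.93, SE 0.77, adjusted p = 0.0343). Nusap1, which bundles spindle microtubules near chromosomes, was at 36.8, 67.04 and 60.1 CPM in the WT libraries and 7.72, 45.1 and 4.0 CPM in the KO libraries (log2 fold change -3.14, SE 0.46, adjusted p = 0.0343). KO 1 was above KO 3 in both. Tpx2, the activator of Aurora A on the spindle, and Aspm, a spindle pole protein of neural progenitors, had log2 fold changes of -3.95 and -4.55.

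Cytokinesis genes differed among themselves, with 3 of 5 lower over the 4 libraries (over all 6 libraries -1.81 to 0.95, with 0 called, and without KO 2, 3 of 5 lower). Ect2, the exchange factor that activates RhoA at the division plane, was at 37.2, 66.9 and 69.4 CPM in the WT libraries and 3.97, 43.8 and 1.56 CPM in the KO libraries (log2 fold change -4.23, SE 0.56, adjusted p = 0.0343). Prc1, which bundles the microtubules of the spindle midzone, was at 76.4, 139.9 and 152 CPM in the WT libraries and 14.99, 100.1 and 6.33 CPM in the KO libraries (log2 fold change -3.33, SE 0.53, adjusted p = 0.0343). Racgap1, of the centralspindlin complex, had a log2 fold change of -2.66. Anln, the actin-binding scaffold of the contractile ring, which did not pass (log2 fold change -1.02, SE 0.43, adjusted p = 0.121), kept 69.3% of its WT mean in KO 1 and 29.8% in KO 3. Cit, which encodes citron kinase of the midbody and, in neurons, a form without the kinase, ran opposite to the rest, at 89.6, 51.4 and 62.9 CPM in the WT libraries and 160.0, 92.1 and 143 CPM in the KO libraries. All 3 KO libraries lay above all 3 WT libraries, and WT 2, the library highest for most of the 50 genes, was the lowest for Cit. The change did not pass over the 4 libraries (log2 fold change 1.10, SE 0.32, adjusted p = 0.0658) or over all 6, at 0.95 (SE 0.29, adjusted p = 0.184), and passed without KO 2 at 1.17 (SE 0.26, adjusted p = 0.0169). Over its alternatives the adjusted p lay between 0.00331 and 0.185 for the 4 libraries and between 0.0169 and 0.462 for all 6. Counts per gene cannot tell the forms of Cit apart, and the neuron markers given above were higher in the same libraries.

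Both transcription factor genes were lower over the 4 libraries (over all 6 libraries -2.04 to -1.79, with 0 called, and without KO 2, 2 of 2 lower). Foxm1, the activator of G2 and mitosis genes, was at 44.2, 74.5 and 68.8 CPM in the WT libraries and 4.26, 39.4 and 1.71 CPM in the KO libraries (log2 fold change -4.31, SE 0.53, adjusted p = 0.0343). Mybl2, which encodes B-Myb, was at 16.7, 33.3 and 26.5 CPM in the WT libraries and 1.93, 18.6 and 1.4 CPM in the KO libraries (log2 fold change -3.89, SE 0.46, adjusted p = 0.0343). KO 2 was below WT 1 for Foxm1 and within the WT range for Mybl2. Of the subunits of the MuvB core, which binds the CHR, 2 of 5 were lower over the 4 libraries, against 13.9% of all genes. Log2 fold changes of the 5 ran from -1.95 (Lin9, adjusted p = 0.0358) to 0.25 (Lin37, adjusted p = 0.377). Without KO 2, 3 of 5 were lower, against 28.3% of all genes. The median of these 5 over all 6 libraries was -0.35, and the 4 tools called 0, with 1 or 2 lower at an unadjusted p.

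The size of what was left in KO 1 and KO 3 split the 50 genes. Both libraries held less than 10% of the WT mean for 30 genes, KO 3 held less than 2% for 16, and both held more than 20% for 6. KO 1 was above KO 3 in 49 genes, with a median ratio of 2.46. That of all genes over 1 CPM in every library was 0.990, and of the 10 glioma markers 1.46. The 50 were not filtered in that way, and some, such as Cdk1 and Bub1, were under 1 CPM in KO 3. The filter can therefore remove high ratios from the background but not from the 50. The ratio was over 5 in 9 genes (Cdk1, Ccnb1, Bub1, Ttk, Cdca5, Cenpf, Top2a, Mki67 and Aspm) and under 2 in 20. It was highest for Bub1, at 54.7 with a counting interval of 9.37 to 2202, where KO 3 had 1 read, and lowest for Bub3, at 0.974. For Cdca5, with 15 and 3 reads, it was 5.47 with an interval of 1.55 to 29.5.

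**Figure D4:**
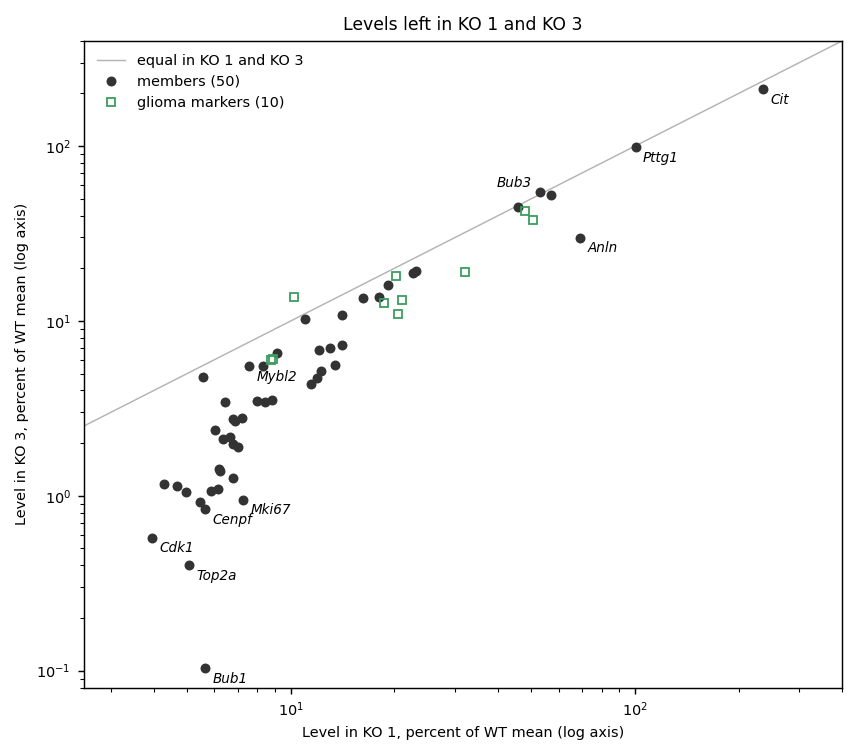
Level left in KO 1 (x) and in KO 3 (y), each as a percent of the mean of the WT libraries on log axes, for the 50 mitosis genes (filled) and the 10 glioma and neural progenitor markers (open squares), with a line of equal levels. Bub1, at 0.103% in KO 3, and Top2a lie farthest under the line, Bub3, Pttg1 and Cit lie near it, and the glioma markers reach down to 8.74% in KO 1 and 5.96% in KO 3 (Nes).

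Other genes of the cell cycle, in lists chosen with earlier results of these data known, were set beside the 50. Of 60 other G2 and mitosis genes, 49 were lower over the 4 libraries, 46 of them more than 4-fold, with a median of -3.25 and a range from -5.34 (Cdca2) to 0.91 (Zwint, a kinetochore gene that did not pass). Without KO 3 the count was 24, and over all 6 libraries 0 were called by the quasi-likelihood test, with 6 lower at an unadjusted p under 0.05. DESeq2 called 2 of the 60 over all 6 libraries, and edgeR's exact test and limma-voom called 0, with 18, 39 and 50 lower at an unadjusted p. The 22 genes of APC/C subunits and core cohesin are ones that cells also use outside mitosis. Of these, 5 were lower over the 4 libraries, against the 13.9% of all genes given above. Their median was -0.55 and their range ran from -1.06 (Stag2) to 0.26 (Fzr1). DESeq2 called 9 of the 22 lower over the 4 libraries, where it called 3160 of all 16183 genes lower. Without KO 2, 13 of the 22 were lower. Over all 6 libraries their median was -0.44 and the quasi-likelihood test called 0, with 11 lower at an unadjusted p, and every KO library lay below every WT library for 9. DESeq2 called 2 of them over all 6, and the exact test and limma-voom called 0, with 11, 2 and 11 lower at an unadjusted p. Of 22 regulators of G1, 8 were lower, with a median of -0.98 and a range from -4.82 (Cdkn2a, SE 1.18, adjusted p = 0.0518) to 0.40 (Cdkn2d). Without KO 2, 13 of these 22 were lower and 1 higher. Over all 6 libraries their median was -0.71 and the quasi-likelihood test, the exact test and limma-voom called 0, with 2, 7 and 8 lower at an unadjusted p, and DESeq2 called 1.

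Some of the 50 share exon bases with a gene on the opposite strand, and the strand setting of the counting is not given in the sources used here, so reads of the pair cannot be told apart there. The shared part was 22.8% of the exon bases of Ube2c (with Tnnc2), 13.4% of Ncapg (Lcorl), 12.7% of Cdc25c (Gm3550), 12.5% of Ccna2 (Exosc9) and 11.1% of Prc1 (Rccd1), and under 10% for the others.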

How the data were processed

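RNA of 6 tumors was sequenced. Per the labels, RNA was extracted with TRIzol, the build was mm10, and CASAVA 1.8.2 and edgeR were used. The study's methods name another library kit, STAR, HTSeq and hg38, and the sources disagree on the kit and build. The authors deposited raw counts per gene, and FPKM, which the authors computed from the same counts and gene lengths. The table also holds the authors' own normalized values, fold changes and p-values, which were not used. No gene is listed with reads in fewer than 4 libraries, and the highest count of a gene is never under 5.

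Groups came from the sample titles. The members, gene lists, motifs and tests were chosen with earlier results of these data known. The count model was edgeR 4.0.16 under R 4.3.3 (filterByExpr with minimum count 10 and minimum total 15, TMM, quasi-likelihood F test, Benjamini-Hochberg over all genes tested), over all 6 libraries and over WT 1, WT 2, KO 1 and KO 3. A call is an adjusted p under 0.05. The fits were tested on simulated counts. Alternatives were RLE, upper quartile and total-count scaling, 2 other filters, edgeR's exact test, DESeq2 1.42.0, limma-voom (limma 3.58.1), a block on replicate number and each replicate left out. Genes named with all library values were fixed by name or were the lowest and highest of their role group. Y-linked genes and Xist were added after their values were seen. Positions are from GENCODE (GRCm38) and promoters from RefSeq. Intervals are exact at 95% and, like the limit for a count of 0, cover counting error only.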

Additional observations from a re-analysis of the deposited data

How the results depend on the processing

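Depth limits the lowest values: Bub1, Cdca5, Ttk and Cdk1 had at most 7 reads in KO 3. Over all 6 libraries, each replicate left out in turn gave 0 to 47 of the 50 genes lower and a median log2 fold change from -4.08 to -1.20, with 47 and -4.08 both without KO replicate 2 and 0 in the other 5. The sample titles number the tumors and state no pairing. Deviations of WT and KO tumors of the same number correlated at 0.549, 0.594 and -0.210, and those of WT 1 and KO 3 at 0.541. With so few tumors per group, these values cannot settle whether the numbers pair the samples. With the replicate block, 0 of the 50 passed (36 lower at an unadjusted p, median -2.83). Over the 4 libraries, scalings, filters and tools gave 43 to 47 of the 50 genes lower. The background moved as well, from 2008 of all 16183 genes lower with limma-voom to 3606 with scaling by total counts. Leaving out each replicate gave a median of the 50 from -4.65 to -3.50. The count of other G2 and mitosis genes ranged from 24, without KO 3, to 55. Of the 33 genes given with all library values, 7 lost their call over the 4 libraries without KO 3 (Ccna2, Aurka, Bub3, Mad2l1, Incenp, Ncapd2 and Smc4), and at most 2 under any other alternative. Scaling by total counts shifted the median of all genes by -0.25 over the 4 libraries and by -0.15 over all 6. Pttg1 changed sign: it stood at 0.013 over all 6 without KO 2 (leaving out each replicate, -0.20 to 0.013) and over the 4 libraries at 0.0033 with RLE and 0.0033 with DESeq2 (leaving out each replicate, -0.10 to 0.040). Why these values moved was not tested.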
